A study of Mus musculus with 6 samples.

Results

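The genes described here are those of the mouse major histocompatibility complex (MHC) and of antigen processing. They are the 43 symbols of the count table that start with H2- and 18 further genes with a part in presentation, 61 of 35186 symbols in all. By role, 39 belong to class I presentation, 18 to class II presentation, and the remaining 4 are Cd1d1, Cd1d2, Mr1 and H2-Ke6, a gene named for its place in the complex. RNA was sequenced from memory B cells of C57BL/6J spleen, sorted for binding the hapten NP, with about 1000 cells per library. There were 3 libraries from wild-type mice (WT) and 3 from mice labelled Nix-/-Bnip3-/- (DKO). Nix, the product of Bnip3l, and Bnip3 sit in the outer membrane of mitochondria and recruit the autophagy machinery to them. The labels give no age, no Cre line and no immunization schedule. Whether a group stands for several mice is not stated, so p-values measure only the spread between these libraries, which may be technical.

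MHC class II molecules are pairs of an alpha and a beta chain that carry peptides from endocytosed protein to the surface of B cells, where CD4 T cells read them. The invariant chain Cd74 guards the groove until H2-DM exchanges its remnant for peptide, a step that H2-O restrains in B cells, and the coactivator Ciita with the RFX factors drives the genes. MHC class I molecules are a heavy chain with beta-2 microglobulin. They carry peptides cut by the proteasome and moved by the TAP transporter, and the coactivator Nlrc5 drives them much as Ciita drives class II. Resting and memory B cells are known for strong expression of both pathways.

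Total counts were 312908 to 500527 in the WT libraries and 444461 to 517057 in the DKO libraries. The WT libraries had a count for 50.7% to 52.5% of all symbols and the DKO libraries for 67.0% to 70.4%. Over the genes tested below, Spearman correlations of counts were 0.119 to 0.124 between WT libraries and 0.465 to 0.495 between DKO libraries. Levels are CPM of the effective library size (normalized CPM), which includes the TMM scaling factor of edgeR. These factors were 0.695 to 0.812 in WT and 1.28 to 1.38 in DKO. On this scale 3 counts in a library equalled 11.6 to 15.8 in WT and 5.52 to 6.79 in DKO. A count thus weighed more in every WT library than in any DKO library. Counts are given below in the order of libraries 1, 2 and 3 of a group. Bnip3l had 1, 8 and 0 counts in WT against 10, 16 and 41 in DKO, which goes against the labels in the mean. Bnip3 had 25, 62 and 6 against 2, 24 and 11. The groups overlapped for both genes, and the deleted exons are not stated, so the counts do not check the genotypes and WT and DKO mean the libraries labelled so. The 12 B cell markers listed had 46 to 127 counts in all in a WT library and 149 to 175 in a DKO library. Cd79a, which encodes a signalling chain of the B cell receptor, had 3, 0 and 0 counts in WT and 0, 2 and 4 in DKO. It was among the least counted of the 12. Ms4a1, the most counted, had 28, 0 and 8 against 42, 70 and 65, and Ebf1 had 25, 16 and 8 against 17, 29 and 26. Of the 4 B cell markers tested 2 lay above 0 and 2 below. In bulk RNA, fewer cells of a type and less RNA per cell cannot be told apart.

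Several genes that B cells are known to express strongly for antigen presentation had few counts in these libraries. Cd74 had 2, 11 and 0 counts in WT against 3, 5 and 4 in DKO. B2m, the shared light chain of class I, had 0, 1 and 1 against 10, 0 and 2. H2-K1 had 6, 5 and 1 against 6, 24 and 34, and H2-Ab1 had 1, 17 and 0 against 32, 2 and 6. None of these 4 genes had enough counts in enough libraries to enter the test. On the scale of normalized CPM per kilobase of exon, which allows genes to be compared, the mean of Cd74 was 10.5 in WT and 4.71 in DKO, at percentiles 71.4 and 53.9 of the 31032 symbols with a length. B2m was at 3.53 and 10.3, percentiles 46.0 and 75.9. H2-K1 was at percentiles 59.4 and 83.3 and H2-Ab1 at 68.2 and 78.4. Other classical genes stood high in 1 group: H2-Eb1 was at percentile 97.5 in WT, through WT library 2, and 79.2 in DKO, and H2-D1 at 36.2 in WT and 96.0 in DKO. The highest members on this scale were the class Ib genes H2-M1 (184) and H2-T22 (106) in WT and H2-Q3 (104) and H2-Q6 (82.7) in DKO. Each of these 4 genes had over 50% of its summed normalized CPM in 1 library. Of the 61 members 18 had a count in all 6 libraries (29.5%, against 26.9% of all symbols), and H2-Ke6 had none in any.

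**Figure D1:**
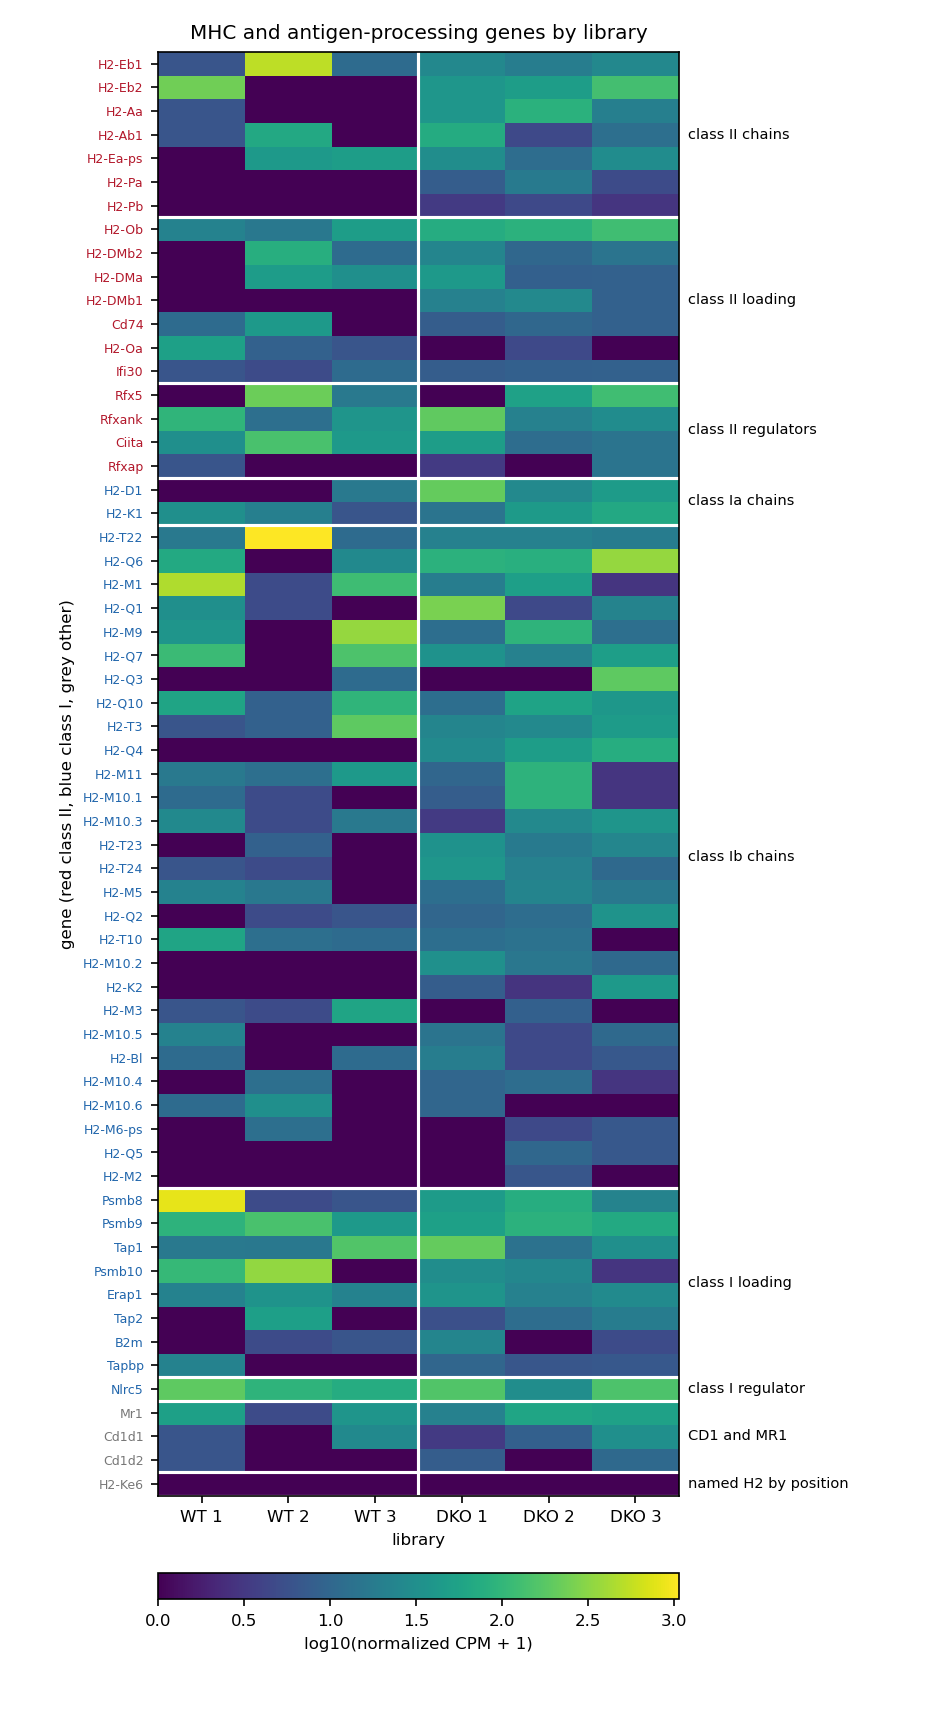
Heat map of log10(normalized CPM + 1) for the 61 genes (rows, grouped by role, most counts first) in the 6 libraries (columns). Dark cells are at or near 0 counts, and the brightest cells, such as H2-T22 in WT 2 and Psmb8 in WT 1, stand in a single library while the other libraries of that group are low.

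Of the 61 members, 22 passed the filter on low counts (an edgeR rule that asks for about 10 counts in at least 3 libraries) and 39 did not. With edgeR's quasi-likelihood test and Benjamini-Hochberg adjustment over all 8895 genes, 0 of the 22 reached 0.05, and 0% of all genes did in either direction. At an unadjusted p under 0.05 there were 2 members higher in DKO and 0 lower, where the shares over all genes were 5.49% and 6.59%. DESeq2 called 0 of the 17 members to which it gave an adjusted p, against 0.653% of all genes higher and 1.17% lower. Adjusted p-values of the 22 ran from 0.389 to 0.992 in edgeR. In 4 of the 22 every DKO library lay above every WT library and in 0 every one lay below, where the shares over all genes tested were 12.8% and 6.39%. These 4 are H2-D1, H2-Q4, H2-Q6 and H2-Ob. A gene that passes the filter only through its high group must differ between groups, so these counts describe the libraries and support nothing further.

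The chains of class II were counted unevenly from library to library. H2-Eb1, the beta chain of I-E, had 1, 139 and 2 counts in WT against 11, 10 and 13 in DKO. In normalized CPM this was 184 ± 306 against 22.8 ± 3.83 (SD, n = 3 and 3). WT library 2 lay far above the other 5, which ran from 5.22 to 25.2, and the log2 fold change, DKO against WT, of -3.00 (SE 1.48, edgeR adjusted p = 0.420) became 1.54 without it. H2-Eb2, a related beta chain, had 45, 0 and 0 against 17, 26 and 67, with a log2 fold change of -0.11 (SE 1.54) that became 7.84 without WT library 1. Here the whole WT signal came from that library, while all 3 DKO libraries had counts. With 0 WT counts left, the value of 7.84 is no measure of size. H2-Ea-ps, the alpha chain locus of I-E, which is inactive in C57BL/6 mice, had 0, 11 and 9 against 13, 6 and 15 (log2 fold change -0.38, SE 1.14).

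Both chains of I-A, the class II molecule that C57BL/6 mice display, fell short of the filter. H2-Aa, the alpha chain, had 1, 0 and 0 counts in WT and 17, 46 and 10 in DKO, or 1.74 ± 3.02 against 47.5 ± 33.6 normalized CPM (SD, n = 3 and 3). Its groups did not overlap. Its partner H2-Ab1 did overlap, at 23.6 ± 36.5 against 29.2 ± 37.6 normalized CPM, with its WT counts in library 2 and most of its DKO counts in library 1. The alpha and beta chains of the same molecule thus stood at different levels within a library: WT library 2 had 0 counts of H2-Aa and 17 of H2-Ab1, and DKO library 2 had 46 and 2. The class II pseudogenes H2-Pa and H2-Pb had 0 counts in each WT library and 3, 9 and 2, and 1, 2 and 1, in DKO.

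Among the genes of class II peptide loading, H2-Ob, the beta chain of the H2-O molecule, had 4, 4 and 9 counts in WT against 33, 47 and 65 in DKO. Every DKO library lay above every WT library, at 95.7 ± 26.8 against 27.9 ± 17.01 normalized CPM (SD, n = 3 and 3). On the log2 scale the difference was 1.78 (SE 0.95, edgeR adjusted p = 0.451), and it ran from 1.52 to 2.46 with 1 library left out. Its partner H2-Oa, the alpha chain, lay the other way, with 10, 2 and 1 counts against 0, 2 and 0. Every DKO library was below every WT library in normalized CPM, but 75.8% of its summed normalized CPM was in WT library 1. With library totals alone in place of TMM scaling its groups overlapped. H2-Oa was too low to be tested.

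H2-DM, the exchange factor, is encoded by an alpha gene and 2 beta genes whose coding sequences share a run of 221 identical bases. H2-DMb1 had 0 counts in each WT library and 9, 14 and 4 in DKO, which made its mean at least 3.84-fold higher than the floor, the value that 3 counts in the whole WT group would give. H2-DMb2 had 0, 20 and 2 against 10, 5 and 7, and H2-DMa had 0, 12 and 6 against 18, 4 and 4. The DKO libraries had counts of all 3 genes, whereas WT library 1 had none of them. Ifi30, a thiol reductase that opens antigens in lysosomes, had 1, 1 and 2 against 3, 4 and 4, or 6.53 ± 3.51 against 7.30 ± 0.484 normalized CPM.

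The regulators of class II lay in both directions. Ciita had 6, 37 and 8 counts in WT against 21, 6 and 7 in DKO, or 72.1 ± 61.6 against 24.0 ± 20.4 normalized CPM (SD, n = 3 and 3). Ciita differed by -1.59 on the log2 scale (SE 1.04, edgeR adjusted p = 0.525) and by -0.57 without WT library 2. That library also had the most H2-Eb1, but 0 counts of H2-Aa and H2-Eb2. Rfx5, the DNA-binding RFX subunit, had 0, 58 and 3 counts against 0, 29 and 64. Its value was -0.45 (SE 1.60), or 2.90 without WT library 2. Rfxank, the ankyrin subunit, had 18, 3 and 7 against 85, 11 and 15 (0.77, SE 1.16, or -0.78 without DKO library 1). Rfxap, the remaining subunit, had 1, 0 and 0 against 1, 0 and 7. Of the 3 tested regulators 1 lay above 0 and 2 below.

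The classical class I chains of this strain are H2-K1 and H2-D1. H2-D1 had 0, 0 and 3 counts in WT against 90, 14 and 23 in DKO, or 5.25 ± 9.10 against 91.3 ± 97.7 normalized CPM (SD, n = 3 and 3). Every DKO library lay above every WT library, and DKO library 1 held 70.3% of the summed normalized CPM. On the log2 scale H2-D1 differed by 4.11 (SE 1.48, edgeR adjusted p = 0.390, DESeq2 adjusted p = 0.128), or 8.17 without WT library 3, the only WT library with a count. With 0 WT counts left, the value of 8.17 is no measure of size. H2-K1 was at 18.6 ± 13.1 against 41.2 ± 26.3 normalized CPM. Its groups overlapped, since DKO library 1 lay below WT libraries 1 and 2. DKO library 1 thus had the most H2-D1 and the least H2-K1 of its group.

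How reads that match several genes were counted is not stated, and some class I genes are near copies of each other over part of their sequence. The 91 bases below are the longest coding run that H2-K1 and H2-D1 share. They are shown because they also stand, unchanged, in H2-Q1, H2-Q6 and H2-Q7. Capitals mark bases that differ from that run, and each line is read from the longest coding sequence of the gene in GENCODE M21.

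H2-K1, H2-D1, H2-Q1, H2-Q6 and H2-Q7: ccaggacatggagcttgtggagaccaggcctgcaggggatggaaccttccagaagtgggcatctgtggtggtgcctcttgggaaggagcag
H2-Q4: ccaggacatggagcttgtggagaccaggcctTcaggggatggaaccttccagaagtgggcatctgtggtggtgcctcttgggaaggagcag
H2-T22: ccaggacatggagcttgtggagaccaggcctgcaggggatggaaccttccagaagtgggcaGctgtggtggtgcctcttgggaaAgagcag
H2-T3: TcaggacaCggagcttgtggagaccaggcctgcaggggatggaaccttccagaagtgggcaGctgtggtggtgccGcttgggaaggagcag
H2-M1: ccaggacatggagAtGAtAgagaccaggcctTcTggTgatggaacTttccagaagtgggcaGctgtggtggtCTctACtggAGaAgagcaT
H2-M9: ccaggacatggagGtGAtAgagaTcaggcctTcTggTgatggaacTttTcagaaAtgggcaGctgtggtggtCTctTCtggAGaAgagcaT

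H2-Q4 differs from the run at 1 of 91 bases, H2-T22 at 2, H2-T3 at 4, H2-M1 at 17 and H2-M9 at 20. A read that lies in this stretch could belong to any of the first 5 genes. A read shorter than the stretch could also belong to a gene with few differences, such as H2-Q4 or H2-T22. Over whole transcripts, 53.5% of the distinct 50-base words (50-mers) of H2-T22 also occur in another gene, most of them in H2-T10. The share was 36.4% for H2-Q4, 35.0% for H2-Q6, 26.5% for H2-Q7, 12.8% for H2-D1 and 9.63% for H2-K1. It was 0% for H2-Eb1, H2-Ab1, H2-Ob, Cd74 and B2m. Values of the first group are therefore uncertain between neighbours in a way that those of the second are not. The share also counts genes that overlap at the same locus, such as Rfx5 (22.3%) and Rfxank (31.0%).

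**Figure D2:**
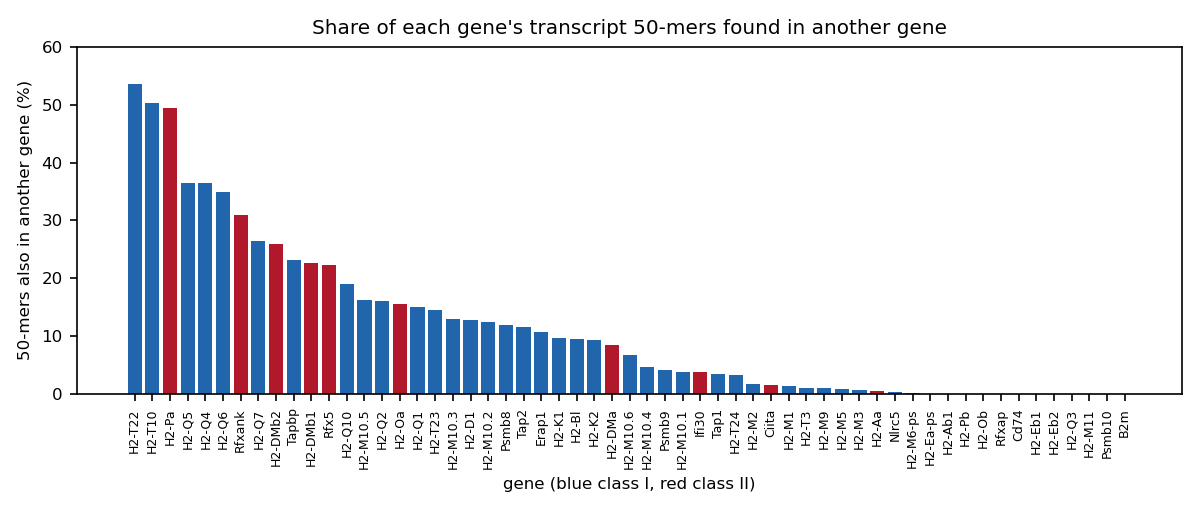
Bars give, for each class I (blue) and class II (red) gene, the percentage of its transcript 50-mers that also occur in the transcripts of another gene. H2-T22 is highest at 53.5%, and the genes at the right end, among them Cd74 and B2m, are at 0%.

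The class Ib chains, which present to fewer or specialised receptors, lay in both directions. H2-Q4 had 0 counts in each WT library and 12, 26 and 39 in DKO libraries 1, 2 and 3, so its mean was at least 10.7-fold higher than the same floor. Its edgeR adjusted p was 0.389. H2-Q6 had 13, 0 and 5 counts in WT and 38, 44 and 181 in DKO, or 31.4 ± 34.2 against 172 ± 154 normalized CPM (SD, n = 3 and 3). The DKO libraries all lay above the WT libraries (log2 fold change 2.47, SE 1.30, edgeR adjusted p = 0.447), and the value was 1.53 without DKO library 3 and 3.83 without WT library 1. H2-Q7, the closest tested relative of H2-Q6, lay the other way, with 22, 0 and 29 counts against 15, 11 and 25 (log2 fold change -1.36, SE 1.27). H2-Q10, which encodes a secreted class I protein, had 11, 2 and 18 against 5, 30 and 20 (-0.58, SE 1.07).

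The other tested class Ib genes had fitted values below 0 in which 1 WT library weighed heavily. H2-M1 had 88, 1 and 23 counts against 8, 27 and 1 (-3.04, SE 1.48, or -1.32 without WT library 1). H2-M9 had 7, 0 and 67 against 5, 50 and 6 (-1.74, SE 1.52, or 1.19 without WT library 3). H2-T3, which encodes the thymus leukaemia antigen, a ligand of CD8 alpha chains, had 1, 2 and 36 against 10, 14 and 23 (-1.10, SE 1.25, or 2.26 without WT library 3). H2-M1 and H2-M9 belong to the H2-M subgroup, part of which is known from sensory neurons of the vomeronasal organ. The 6 members of that subgroup named H2-M10 had between 14 and 55 counts each over the 6 libraries.

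Some class Ib genes that were not tested were counted almost wholly in 1 library. H2-T22, a ligand of gamma delta T cell receptors, had 3, 275 and 2 counts in WT and 9, 11 and 9 in DKO, with 92.7% of its summed normalized CPM in WT library 2. H2-Q3, a pseudogene, had 0, 0 and 2 against 0, 0 and 98, all but 2 in DKO library 3. H2-Q1 had 6, 1 and 0 against 115, 2 and 11. H2-T23, which encodes Qa-1, the ligand of the NKG2A receptor, was more even within DKO. It had 0, 2 and 0 counts against 15, 9 and 12, or 2.58 ± 4.46 against 24.6 ± 8.76 normalized CPM (SD, n = 3 and 3), and its groups did not overlap. H2-T24 (1, 1 and 0 against 17, 11 and 5) and H2-Q2 (0, 1 and 1 against 4, 6 and 18) also did not overlap. H2-M10.2 and the pseudogene H2-K2 had 0 counts in each WT library and 27 and 26 in all in DKO. The means were at least 3.99-fold and 3.65-fold higher against the floor, although 22 of the 26 counts of H2-K2 were in DKO library 3.

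Among all 61 members, tested or not, the groups did not overlap in 13 with DKO higher, 8 of class I and 5 of class II, and in 1 with DKO lower, H2-Oa. Over all symbols the shares were 8.43% and 3.52%, a base that includes symbols with no count. With library totals alone in place of TMM scaling 15 members lay higher and 0 lower, against 13.6% and 1.58% of all symbols. There were 6 members with 0 counts in all 3 WT libraries and a count in all 3 DKO libraries (3.25% of all symbols), namely H2-DMb1, H2-K2, H2-M10.2, H2-Pa, H2-Pb and H2-Q4. The opposite pattern occurred in 0 members (0.125% of all symbols). The number of members with a count was 34 to 40 in a WT library and 53 to 55 in a DKO library. The share of all symbols with a count moved the same way, as given above, and its part in these differences was not tested.

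Genes that supply peptides to class I also rested in part on single libraries. Psmb8, a subunit of the immunoproteasome, had 157, 1 and 1 counts in WT against 20, 41 and 11 in DKO. Without WT library 1 its log2 fold change of -2.53 (SE 1.63) became 3.37. Psmb10, another immunoproteasome subunit, had 20, 89 and 0 counts against 13, 13 and 1 (-3.01, SE 1.49, edgeR adjusted p = 0.421), or -1.45 without WT library 2. Psmb9, the remaining one, was steadier, with 17, 37 and 8 against 23, 47 and 35, or 91.3 ± 50.5 against 68.8 ± 17.3 normalized CPM (SD, n = 3 and 3), and a log2 fold change of -0.41 (SE 0.91). The 3 subunits enter the proteasome together, yet their counts did not go together in WT: library 1 was highest for Psmb8, and library 2 for Psmb9 and Psmb10.

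Tap1, a chain of the peptide transporter and the divergent neighbour of Psmb9, had 3, 4 and 30 counts against 91, 7 and 16. Its log2 fold change of 0.41 (SE 1.27) was -1.31 without DKO library 1 and 2.46 without WT library 3. Tap2, the other chain, had 0, 13 and 0 against 2, 6 and 9, and Tapbp, the tapasin that holds class I at the transporter, had 4, 0 and 0 against 4, 3 and 3. Erap1, the aminopeptidase that trims peptides in the endoplasmic reticulum, had the smallest share in any 1 library (22.6%) of the 22 tested members. It had 4, 9 and 4 counts against 16, 11 and 14, or 25.6 ± 7.98 against 27.9 ± 7.997 normalized CPM (SD, n = 3 and 3), with a log2 fold change of 0.11 (SE 0.90, edgeR adjusted p = 0.978). Nlrc5, the class I coactivator, had 36, 24 and 14 against 71, 16 and 78, or 118 ± 61.3 against 114 ± 73.1 normalized CPM (-0.05, SE 0.98).

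The MHC-like molecules that present lipids and metabolites were low. Mr1, which presents vitamin B metabolites, had 10, 1 and 7 counts against 9, 32 and 27 (log2 fold change 0.52, SE 1.05, edgeR adjusted p = 0.858). Cd1d1, which presents lipids to NKT cells, had 1, 0 and 5 against 1, 4 and 16, and its near copy Cd1d2 had 1, 0 and 0 against 3, 0 and 5. The coding sequences of Cd1d1 and Cd1d2 share a run of 245 identical bases.

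Class I and class II did not separate by their fold changes. Of the 14 class I genes tested 5 lay above 0 and 9 below, with a median log2 fold change of -0.49. Of the 7 class II genes tested 2 lay above 0 and 5 below, with a median of -0.38. Over all 8895 genes tested the median was -0.17 and 45.5% lay above 0. With library totals alone in place of TMM scaling the medians were 0.29 for class I, 0.44 for class II and 0.62 for all genes, so the sign of both class medians depends on the scaling, while both stayed below the median of all genes. That order did not hold throughout: with no filter on low counts class I was at 0.72, class II at 0.36 and all genes at 0.29. Of the 22 tested members 12 had over 50% of their summed normalized CPM in 1 library, where the share over all genes tested was 29.7%.

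**Figure D3:**
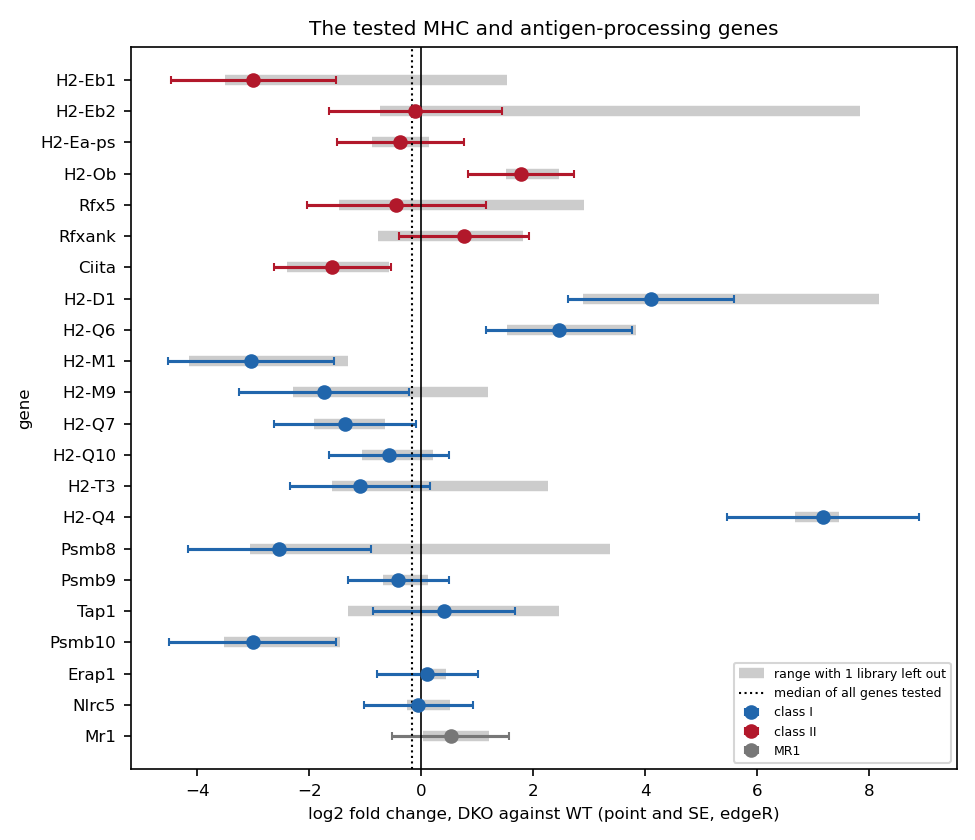
Log2 fold changes, DKO against WT, of the 22 tested members, with the standard error as whiskers and the range over leaving out 1 library as a grey bar. Bars cross 0 for genes such as H2-Eb1, Psmb8 and H2-T3, and for H2-Q4, which had 0 counts in WT, the fitted value is no measure of size. The same holds for the upper ends of the H2-Eb2 and H2-D1 bars, fitted with 0 WT counts left.

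As shares of a library, class I members held 0.138%, 0.0989% and 0.0847% of the counts in WT against 0.148%, 0.113% and 0.145% in DKO. The groups overlapped. Class II members held 0.0288%, 0.0629% and 0.0153% in WT and 0.0623%, 0.0441% and 0.0573% in DKO, and overlapped through WT library 2. On the scale of normalized CPM the order of the class I groups turned, with 2262, 1913 and 1423 in WT and 1484, 1079 and 1443 in DKO. The DKO mean was the higher one as a share and the lower one in normalized CPM, and the groups overlapped on both scales. Class II was at 470, 1217 and 257 against 627, 420 and 571 normalized CPM and overlapped too. Exact 95% binomial intervals, which cover counting error only, were 0.0113% to 0.0203% for class II in WT library 3 and 0.0562% to 0.0703% in WT library 2, so that libraries of 1 group differed far beyond counting error. The ratio of class II to class I counts was 0.208, 0.636 and 0.181 in WT and 0.422, 0.389 and 0.396 in DKO. The 3 DKO libraries stood close together and between the WT values. Over all genes tested the WT libraries also correlated less with each other, as given above. A wider WT spread is thus not particular to these classes. Without the most counted gene of each class in each library the ratios were 0.163, 0.800 and 0.196 against 0.355, 0.338 and 0.404.

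**Figure D4:**
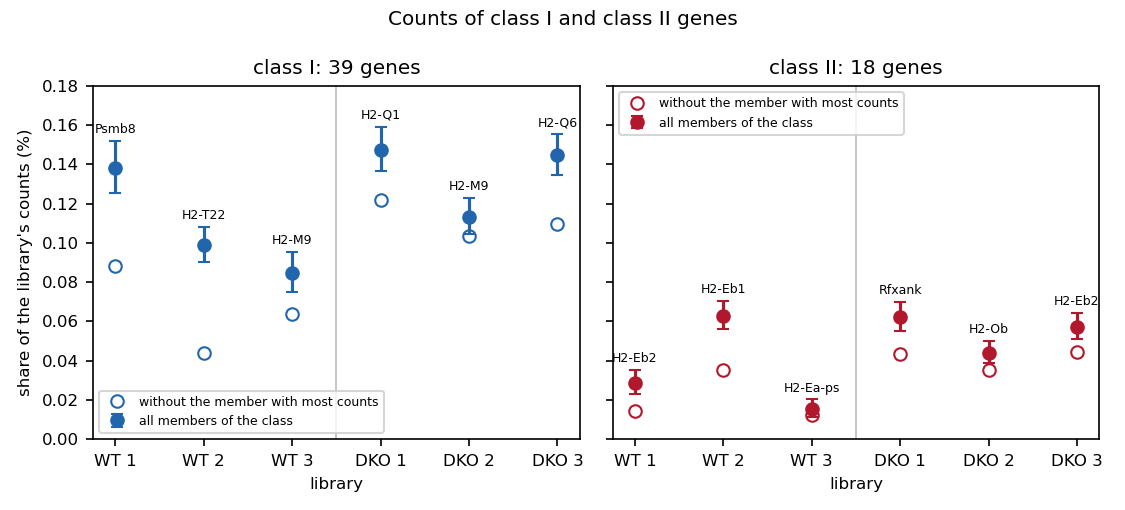
Share of each library's counts (percent, y axis) in class I genes (left) and class II genes (right), with exact 95% binomial intervals. Open circles leave out the gene with most counts, named above each point. Class I was 0.0847% to 0.148% and class II 0.0153% to 0.0629%, and the WT values spread more widely than the DKO values for class II.

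The summed levels of each role put the class contrast in its parts. The 2 classical class I chains had 6, 5 and 4 counts together in WT against 96, 38 and 57 in DKO. In normalized CPM this was 31.3, 19.3 and 21.01 against 217, 69.9 and 110, with no overlap. The 28 class Ib chains had 186, 312 and 209 against 310, 404 and 519 counts, or 972, 1206 and 1098 against 701, 744 and 1005 normalized CPM. The WT values overlapped those of DKO library 3. The 7 class II chains had 48, 167 and 11 against 94, 101 and 114 counts, and the 7 loading genes 17, 50 and 20 against 76, 81 and 88. In normalized CPM the loading genes were 88.8, 193 and 105 against 172, 149 and 170, and the groups overlapped, since WT library 2 lay above every DKO library. In normalized CPM the class II chains were 251, 645 and 57.8 against 213, 186 and 221. The DKO values were again close to each other and inside the WT range.

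Promoters were read for the members whose groups did not overlap among the best counted, with H2-Eb1 and H2-K1 beside them, to set the sequences of both classes side by side. Of the 61 members 42 had a window in the RefSeq promoter table (GRCm38.p6). Each line below gives the 250 bases before the start site, 5′ to 3′. Capitals mark a Y box core, the element bound by NF-Y (TGATTGG or its complement CCAATCA), a kappa B element, and an interferon-stimulated response element, each searched on both strands as the exact letters that stand in capitals in the H2-D1 line.

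H2-Aa, chr17:34287824-34288073, minus strand: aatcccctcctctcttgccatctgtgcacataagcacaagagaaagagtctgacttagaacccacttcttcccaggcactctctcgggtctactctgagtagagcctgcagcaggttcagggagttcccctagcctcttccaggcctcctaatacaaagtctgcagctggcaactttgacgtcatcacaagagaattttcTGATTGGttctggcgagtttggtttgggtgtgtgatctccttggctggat
H2-Eb1, chr17:34305617-34305866, plus strand: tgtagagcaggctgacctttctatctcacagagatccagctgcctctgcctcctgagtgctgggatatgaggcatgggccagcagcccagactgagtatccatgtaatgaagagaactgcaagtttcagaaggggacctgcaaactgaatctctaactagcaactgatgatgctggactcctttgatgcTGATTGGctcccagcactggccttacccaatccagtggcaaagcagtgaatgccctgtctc
H2-Ob, chr17:34238655-34238904, plus strand: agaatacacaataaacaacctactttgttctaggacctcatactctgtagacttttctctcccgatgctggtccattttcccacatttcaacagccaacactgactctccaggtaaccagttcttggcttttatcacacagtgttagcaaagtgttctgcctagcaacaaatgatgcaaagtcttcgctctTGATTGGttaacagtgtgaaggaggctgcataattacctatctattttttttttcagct
H2-K1, chr17:34000348-34000597, minus strand: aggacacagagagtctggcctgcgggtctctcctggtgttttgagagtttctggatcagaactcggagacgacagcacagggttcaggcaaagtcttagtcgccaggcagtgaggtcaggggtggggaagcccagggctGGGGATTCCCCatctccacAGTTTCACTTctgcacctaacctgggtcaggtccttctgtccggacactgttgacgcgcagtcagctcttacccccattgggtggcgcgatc
H2-D1, chr17:35262844-35263093, plus strand: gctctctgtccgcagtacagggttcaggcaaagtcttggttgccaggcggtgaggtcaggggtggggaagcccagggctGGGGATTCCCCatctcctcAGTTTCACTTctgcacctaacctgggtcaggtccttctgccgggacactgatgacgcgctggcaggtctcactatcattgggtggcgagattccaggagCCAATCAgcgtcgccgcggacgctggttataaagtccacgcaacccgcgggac
H2-Q4, chr17:35379367-35379616, plus strand: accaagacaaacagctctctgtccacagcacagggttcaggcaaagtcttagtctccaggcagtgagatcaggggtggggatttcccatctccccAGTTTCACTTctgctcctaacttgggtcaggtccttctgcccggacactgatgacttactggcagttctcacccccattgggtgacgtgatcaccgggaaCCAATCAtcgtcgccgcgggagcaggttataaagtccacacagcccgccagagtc
H2-Q6, chr17:35424600-35424849, plus strand: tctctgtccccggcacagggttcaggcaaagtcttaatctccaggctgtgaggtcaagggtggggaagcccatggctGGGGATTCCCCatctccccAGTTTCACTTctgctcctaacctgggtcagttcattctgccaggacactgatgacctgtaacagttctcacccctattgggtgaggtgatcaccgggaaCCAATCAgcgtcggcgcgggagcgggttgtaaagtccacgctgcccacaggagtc

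The class II windows of H2-Aa, H2-Eb1 and H2-Ob each held 1 Y box core, starting 50, 61 and 59 bases before the start site, and neither of the other motifs. H2-D1 and H2-Q6 held all 3 motifs, in the same order and at 171, 152 and 53 and 173, 154 and 55 bases. H2-Q4 held the response element and the Y box core, at 155 and 55 bases, and not the exact kappa B letters. Only exact letters were searched, so variants of these elements, in H2-Q4 or any other window, were not counted. H2-K1, shown from the first of 2 listed starts, held the kappa B and response elements at 111 and 92 bases. Its window ends before the place where the matching H2-D1 sequence holds the Y box core. The line shown thus does not tell whether H2-K1 has that core, and its distances depend on the start chosen. Among members with a window, the Y box core stood in 16 of 29 of class I and 8 of 11 of class II, against 7.23% of the 32851 windows in the table. The response element stood in 8 of 29 and 0 of 11 (0.128% of all windows) and the kappa B element in 3 of 29 and 0 of 11 (0.0304%). Related genes share these letters by descent, and a match is a description of sequence only.

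Other genes of class II presentation, a list of 23 with 16 tested, had 3 values above 0 and 13 below, with a median log2 fold change of -0.76, where 45.5% of all genes tested lay above 0 with a median of -0.17. None passed the edgeR test, and at an unadjusted p under 0.05 there were 1 higher and 4 lower, against 5.49% and 6.59% of all genes. Lgmn, a lysosomal protease, had 6, 155 and 15 counts in WT and 6, 20 and 8 in DKO. WT library 2 was the high one, as for H2-Eb1 and Ciita, and also for the class I genes H2-T22 and Psmb10. Cd9, a tetraspanin that associates with class II, had 6, 36 and 8 against 11, 5 and 4 (log2 fold change -2.34, SE 1.04, edgeR adjusted p = 0.406). In normalized CPM every DKO library lay below every WT library for this gene, as for 6.39% of all genes tested. In counts DKO library 1 lay above WT libraries 1 and 3. The log2 fold change of Cd9 was -1.35 without WT library 2. Nfya, a subunit of NF-Y, had 1, 1 and 10 against 96, 59 and 27 (2.62, SE 1.20, or 4.78 without WT library 3). Cd86, a costimulatory ligand, had 33, 15 and 93 against 9, 37 and 20. Ctss, the cathepsin that cuts the invariant chain in B cells, was not tested and had 2, 3 and 0 against 1, 55 and 4 (chosen after its values were seen).

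Other genes of class I presentation, a list of 25 with 15 tested, had 11 values above 0 and 4 below and a median of 0.70, beside the same 45.5% and -0.17 over all genes. None passed the edgeR test, and 0 had an unadjusted p under 0.05 in either direction, against 12.1% of all genes. Psmb7, a subunit of the constitutive proteasome, had 2, 1 and 2 counts against 15, 20 and 18, or 8.27 ± 3.82 against 35.2 ± 1.47 normalized CPM (SD, n = 3 and 3). Its log2 fold change of 2.08 (SE 1.00, edgeR adjusted p = 0.419) ran from 1.76 to 2.36 with 1 library left out. Thop1, a cytosolic peptidase that destroys class I peptides, had 3, 0 and 0 against 21, 15 and 18, and the chaperone gene Hspa5 had 6, 3 and 4 against 16, 77 and 35. Neither overlapped between groups. Tapbpl, which edits class I peptides as tapasin does, had 17, 4 and 19 against 0, 16 and 1 (-2.63, SE 1.35). The lists hold few tested genes, and the difference between them was not tested.

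Markers of other spleen cells that carry class II were counted in the same libraries. The 10 dendritic cell markers summed to 324 to 2736 normalized CPM in WT and 458 to 598 in DKO, with none at 0 in all libraries and Batf3 at 0 in all 3 DKO libraries. Itgax, which encodes CD11c, had 8, 16 and 471 counts in WT and 38, 31 and 76 in DKO, so the WT maximum lay in library 3, the WT library with the lowest class II share. Zbtb46, with 7, 30 and 19 counts against 97, 112 and 93, and Xcr1, with 2, 0 and 2 against 26, 10 and 14, did not overlap and lay higher in DKO. Of the 4 dendritic cell markers tested 2 lay above 0 and 2 below. Of the 10 monocyte and macrophage markers listed, 9 were in the table. They summed to 188 to 676 normalized CPM in WT and 575 to 968 in DKO, and Lyz2, which encodes lysozyme, had 4, 0 and 10 counts against 35, 92 and 206. The 12 B cell markers summed to 242 to 491 and 302 to 339 normalized CPM, the T cell markers to 193 to 987 and 151 to 254, and the plasma cell markers to 120 to 278 and 71.7 to 378. The monocyte and macrophage sums overlapped between groups, and of the 7 markers tested 4 lay above 0 and 3 below. Lyz2 and Itgam did not overlap and lay higher in DKO, as did H2-Aa, H2-D1, H2-Q4, H2-Q6 and H2-Ob. So did the T cell markers Cd3e, Lck and Cd2, 12.8% of all genes tested and 8.43% of all symbols. Of the 4 T cell markers tested 2 lay above 0 and 2 below. The ones below were Bcl11b (-3.38, SE 1.37), with 2, 21 and 142 counts against 11, 17 and 12, and Cd4 (-1.38, SE 1.03). Cd3d, not tested, had 9, 1 and 33 against 1, 4 and 6. Of the monocyte and macrophage markers, Fcgr1 (log2 fold change -1.49, SE 1.40), Spic (-1.27, SE 0.99) and Csf1r (-0.89, SE 1.27) lay below 0. The part of these markers in the values of the MHC genes was not tested.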

How the data were processed

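The authors deposited raw read counts per gene symbol for 6 libraries, not normalized; 0 columns were left unmatched. Per the submitters' processing notes, STAR, CASAVA, mm10, edgeR and R 3.6.3 were used, without roles. No source used here names the counting tool, strand setting or annotation, so reads of overlapping and antisense genes cannot be told apart. Per the labels' protocols, libraries were enriched for polyadenylated RNA.

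The test was that of edgeR 4.0.16 in R 4.3.3, with limma 3.58.1 for voom: filterByExpr (minimum count 10), TMM, the robust quasi-likelihood F test of DKO against WT over all 6 libraries without covariate, and Benjamini-Hochberg adjustment over 8895 genes at 0.05. Standard errors were derived from the estimate and its F statistic. DESeq2 1.42.0, run on all symbols, was an alternative. A floor is 3 counts over a group and covers counting error only. Depth was 312908 to 517057 counts per library. Lengths and coding sequences are from GENCODE M21 (mm10), matched by symbol for all 61 members. The script was tested on simulated data for DKO against WT, 8895 genes of which 200 were altered. At the dispersion estimated from these libraries it found 0 of 67 at a log2 change of 2, 12 of 67 at 4 and 35 of 66 at 6. At a coefficient of variation of 0.2 and the same depth it found 60 of 67, 63 of 67 and 57 of 66. There 63, 63 and 57 passed the filter, and 6 unaltered genes were called.

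Members with at least 30 counts or a test could be named with every library, others by any count, and from other lists up to 4 genes with the smallest p and the defining markers. Members, lists and motifs were chosen with earlier results of these data known. Medians of a class are descriptions without a test.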

Additional observations from a re-analysis of the deposited data

How the results depend on the processing

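No member passed edgeR's adjusted p of 0.05, and none did under any of the 16 alternatives tried, which include DESeq2, limma-voom with quality weights and an adjusted p of 0.1; at an unadjusted p under 0.05 there were 2. Over all genes, DESeq2 called 45 higher and 81 lower, and edgeR with no filter on low counts 22 and 108, where the count reported was 0. The numbers of tested members with every DKO library above every WT library ran from 4 to 6 with 1 library left out and from 4 to 5 under other scalings, alternatives chosen after seeing the data.

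The class I median of -0.49 moved by more than 1 pooled SD of the class sum between replicates (0.61) with library totals alone (0.29), no filter (0.72) and a mean CPM of at least 10 (0.60). With 1 library left out it ran from -0.41 to 0.71, above 0 without any 1 of the WT libraries. The class II median of -0.38 ran from -0.51 to 0.93 with 1 library left out, the highest without WT library 2. With 1 library left out the median of all genes ran from -0.22 to 0.09. The genes tested change with the filter and the libraries. The cause was not tested beyond that.

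Of the 22 tested members 13 changed sign under at least 1 alternative, 12 of them when 1 library was left out, and 17 moved by over 1.5-fold then. With library totals alone the values above 0 were H2-Eb2 0.57, H2-Ea-ps 0.41, Rfx5 0.44, H2-Q10 0.17, Psmb9 0.41 and Nlrc5 0.68, where the reported ones were below. With the upper quartile H2-Eb2 was at 0.067 and Nlrc5 at 0.18, with no filter they were at 0.23 and 0.25, and with a mean CPM of at least 10 at 0.063 and 0.13. With DESeq2's size factors Erap1 was at -0.023. With limma-voom H2-Eb2 was at 2.48, H2-Ea-ps at 0.24, Rfx5 at 0.32, Psmb8 at 0.39 and Tap1 at -0.065. With the replicate block H2-Eb2 was at 3.01, Rfx5 at 0.26, H2-T3 at 0.39 and Psmb8 at 0.81. The cause was not tested.

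With 1 library left out the values ran from -3.50 to 1.54 for H2-Eb1, -0.74 to 7.84 for H2-Eb2, -0.88 to 0.15 for H2-Ea-ps, -1.47 to 2.90 for Rfx5, -0.78 to 1.81 for Rfxank, -2.28 to 1.19 for H2-M9, -1.06 to 0.21 for H2-Q10, -1.60 to 2.26 for H2-T3, -3.07 to 3.37 for Psmb8, -0.68 to 0.12 for Psmb9, -1.31 to 2.46 for Tap1 and -0.25 to 0.52 for Nlrc5. The 7.84 of H2-Eb2 was fitted with 0 WT counts left and is no measure of size. H2-M9 without DKO library 2 and Erap1 without DKO library 3 did not pass the filter and gave no value.

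Groups share replicate numbers, but same-numbered libraries deviated together only weakly (correlations of 0.023, 0.026 and 0.037 across genes), so the numbers were not taken as pairs. Each library correlated best with its own number, which is a hint from the data and not from the design. The replicate block gave 0 calls in each direction and 0 members called, with class medians of -0.079 for class I and 0.26 for class II. At 3 counts worth up to 15.8 normalized CPM, differences among members near that level were not detectable at this depth and this spread between libraries.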
